A study of Rattus norvegicus with 4 samples.

Results

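Angiotensinogen (Agt) and the mRNAs for both type 1 angiotensin receptors, Agtr1a and Agtr1b, were followed in RNA-Seq of rat small mesenteric arteries (MA) and thoracic aorta (AO). The genes were chosen by their names, and 3 of the 26313 Ensembl gene identifiers in the data carry them: ENSRNOG00000018445 for Agt, ENSRNOG00000018346 for Agtr1a and ENSRNOG00000010640 for Agtr1b. There were 4 samples, AO1 and AO2 of aorta, a large conduit artery, and MA1 and MA2 of the mesenteric arterial arcade, which consists of small resistance arteries. All came from adult male Sprague-Dawley rats for which no treatment is given. One rat gave both AO1 and MA1, and AO2 and MA2 came from a further rat each. The MA samples left out the superior mesenteric artery and had surrounding fat removed. RNA came from whole tissue, so every cell type of the vessel wall and of any tissue left around it contributed.

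Angiotensinogen is the only precursor of the angiotensin peptides. Renin cuts the decapeptide angiotensin I from its amino-terminal end, and angiotensin-converting enzyme then shortens this to angiotensin II. Liver is the main source of circulating angiotensinogen, while the mRNA is also found in fat and in the vessel wall. Angiotensin II constricts arteries through the type 1 receptor, a G protein-coupled receptor of smooth muscle. Rats and mice carry separate genes for this receptor, Agtr1a and Agtr1b, whose proteins are nearly identical, whereas humans have a single gene. Agtr1a is regarded as the main form in rodent arteries, and Agtr1b is best known from the adrenal gland and the pituitary.

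The receptor proteins are close copies, but the levels of their mRNAs differed by more than 10-fold in every sample, so the sequences upstream of the genes are shown side by side. Of the 3 genes, 2 were matched by symbol to the RefSeq promoter sequences of assembly GRCr8. The 250 bases before the annotated start site lie at chr17:34435433-34435682 on the minus strand for Agtr1a and at chr2:104849263-104849512 on the minus strand for Agtr1b. They are written 5′ to 3′, and the capitals mark ATAAAT, the AT-rich run that both hold near the start site.
Agtr1a: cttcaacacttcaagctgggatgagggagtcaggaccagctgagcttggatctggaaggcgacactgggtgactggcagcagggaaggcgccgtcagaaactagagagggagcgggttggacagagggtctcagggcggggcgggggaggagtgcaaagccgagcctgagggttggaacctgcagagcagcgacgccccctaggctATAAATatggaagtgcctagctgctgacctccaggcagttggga
Agtr1b: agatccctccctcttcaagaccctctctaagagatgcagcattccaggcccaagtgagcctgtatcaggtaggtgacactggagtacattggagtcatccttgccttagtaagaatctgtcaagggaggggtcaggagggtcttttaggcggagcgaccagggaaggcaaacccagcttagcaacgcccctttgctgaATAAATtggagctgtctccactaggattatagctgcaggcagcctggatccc
In a global alignment of these sequences 166 bases were identical and 46 mismatched, or 78.3% identity over aligned bases, with a further 76 alignment columns opposite a gap. The longest run they shared was 10 bases. In Agtr1a the letter before the capitals is a T, which gives the TATA-box letters TATAAA, beginning 45 bases before the start site. In Agtr1b the capitals begin 52 bases before the start site and TATAAA was not found on either strand. TATAAA on either strand was present in 12.9% of 33469 RefSeq promoters of this length, and ATAAAT, which overlaps it by all but 1 letter, in 13.1%. These letters were chosen after the sequences had been seen, and a match describes the sequence alone.

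Levels are given in RPKM, reads on a gene normalized to its length in kilobases and to the library size. A few genes with very many reads took a larger share of the reads in AO. The 10 most abundant held 35.9% and 43.7% of the reads there, against 16.3% and 18.5% in MA. Each sample was therefore divided by a median-of-ratios factor, between 0.789 and 1.22. These values are called scaled RPKM. Each gene's whole reads were solved from the spacing of its RPKM values and added up to between 72524336 and 82449105 per sample. The lengths solved in the same way were 12323 bp for Agt, 51707 bp for Agtr1a and 75117 bp for Agtr1b, and those of the receptors correspond to spans of whole genes with introns rather than to mRNAs. RPKM per span understates a gene with long introns, so comparisons between genes are given both per length and in reads. Whether reads within introns were counted is not given in the sources used here, so the reads may include RNA that is not spliced mRNA. The RefSeq spans in GRCr8 are 52127 bp for Agtr1a and 75258 bp for Agtr1b, within 1% of the solved lengths, which holds for 0.224% and 0.173% of all RefSeq genes. For Agt the RefSeq span of 20478 bp is longer than the solved length, so there the name rests on the identifier alone.

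Agt was the most abundant of the 3 mRNAs in every sample, per length and in reads, and its level differed more within AO than between AO and MA. In RPKM it was 18.8 in AO1 and 3.18 in AO2, and 17.3 in MA1 and 12.1 in MA2. After scaling, AO1 stood at 23.8 and AO2 at 3.55, while MA1 stood at 14.2 and MA2 at 10.4. AO1 was thus the highest and AO2 the lowest of the 4 samples, and both MA samples lay between them. The reads were 20909, 3425, 17804 and 13230 in the same order, so counting error is small beside these differences. By RPKM, Agt was above 95.4% of the genes detected in AO1 and above 82.7% of those in AO2, and it was above 94.3% and 92.5% in MA1 and MA2.

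The AO samples were 6.71-fold apart in scaled RPKM of Agt, and the MA samples 1.36-fold. The 7203 genes tested on the RPKM scale were those that reached 1 RPKM in 2 samples or more. Only 13 of them, or 0.180%, were at least as far apart between AO1 and AO2 on the scale of log2(scaled RPKM + 0.5). On this scale the distance was 2.59 for Agt and the median over the genes 0.20. Of the other 12 genes, 5 were higher in AO1 and 7 in AO2. On log2 scaled RPKM, with no pseudocount, the share was larger, 312 of 17797 genes with at least 10 reads in all and above 0 in both AO samples, or 1.75%. Between MA1 and MA2 the distance for Agt was 0.43, and 27.0% of the genes were at least as far apart. The order AO1, MA1, MA2, AO2, from high to low, was shared by 119 of the 7203 genes, or 1.65%. In AO1 and MA1, which came from the same rat, Agt was higher than in the other sample of the tissue. With 1 such rat, whether the animal or the dissection goes with this difference cannot be told apart.

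Scaled Agt was 13.7 ± 14.3 (SD, n = 2) in AO and 12.3 ± 2.68 (SD, n = 2) in MA, so the arithmetic mean was slightly higher in AO, with a ratio of MA to AO of 0.900, while the mean of logs was slightly higher in MA. Without scaling, the ratio of the mean RPKM of MA to AO was 1.34, which turns the direction of the arithmetic mean, and the log2 difference on log2(RPKM + 0.5) was 0.83. The log2 difference of MA minus AO was 0.35 (standard error 0.91, 95% interval -2.09 to 2.80), with an adjusted p of 0.865 from limma. This interval holds a more than 4-fold difference in either direction, so the comparison does not show that AO and MA are alike. Of the 7203 genes, 7.71% met the limits of an adjusted p up to 0.05 and more than 2-fold, and Agt was not among them. The sign turned on which AO sample was kept. Without AO2 the log2 difference was -0.95 and without AO1 it was 1.65, with adjusted p of 0.241 and 0.176 from limma in fits that assume the lone AO sample to vary as the MA samples do. In whole tissue, fewer cells of a type and less RNA per cell cannot be told apart.

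**Figure D1:**
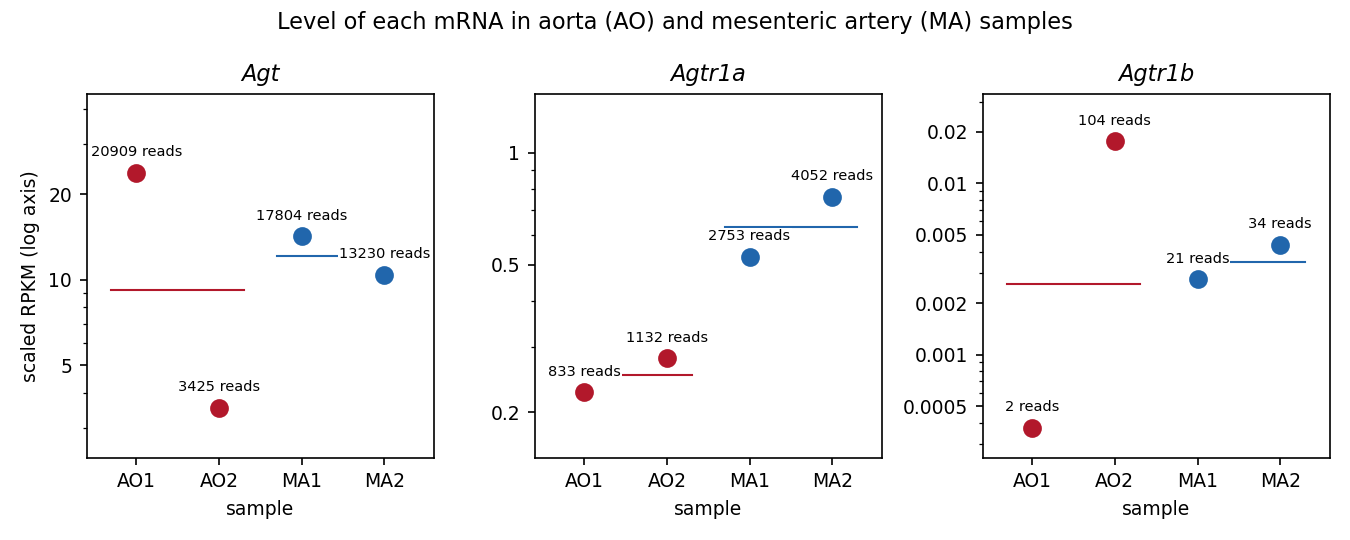
Scaled RPKM (log axis, a separate range for each gene) of Agt, Agtr1a and Agtr1b in the AO samples (red) and MA samples (blue), with the solved reads at each point and horizontal lines at the geometric mean of each tissue. Both MA points lie above both AO points for Agtr1a, whereas for Agt and Agtr1b the AO points lie on either side of the MA points.

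Agtr1a, the main type 1 receptor of rodent arteries, was higher in each MA sample than in each AO sample. Its RPKM was 0.178 in AO1 and 0.251 in AO2, compared with 0.639 in MA1 and 0.881 in MA2. Scaled values were 0.226 and 0.279 in AO, against 0.524 and 0.761 in MA. The groups did not overlap, and the lower MA sample was 1.87-fold above the higher AO sample. The samples of a tissue were closer together than this, 1.24-fold apart in AO and 1.45-fold in MA. By reads Agtr1a was well covered, with 833 in AO1 and 1132 in AO2, compared with 2753 in MA1 and 4052 in MA2. Within each sample Agtr1a was above 40.5% to 60.7% of the genes detected, a middling level per length of gene.

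The mean of Agtr1a was 0.253 ± 0.038 (SD, n = 2) in AO and 0.642 ± 0.168 (SD, n = 2) in MA in scaled RPKM, a ratio of 2.54. Without scaling, the ratio of the mean RPKM was 3.54. Both MA samples lay above both AO samples in 26.1% of the 18245 genes with at least 10 reads in all, and in 9.86% they did so with means more than 2-fold apart. Being of this kind is therefore not unusual among these genes. In the paper, the smooth muscle mRNAs Myh11 and Acta2 also tended to be higher in MA, without reaching significance. Other mRNAs of smooth muscle, Actg2, Myocd and Mypt1, were significantly enriched in MA there. Its qPCR in further rats also put Myh11 and Mypt1 higher in MA. A larger share of cells that make Agtr1a and more of its RNA per cell cannot be told apart in whole tissue. All values of Agtr1a were under 1 RPKM, so it was not among the 7203 genes tested on the RPKM scale. With limma-voom on reads, applied to the 18245 genes, the log2 difference was 1.32 (standard error 0.27, 95% interval 0.61 to 2.04), with an unadjusted p of 0.00550 and an adjusted p of 0.0992 from limma-voom. Agtr1a therefore did not pass the limit of 0.05 once all genes were taken into account. In that fit 2.1% of genes passed the limits in either direction and 0.208% as higher in MA, while 6.87% were higher in MA with an unadjusted p up to 0.05. With each sample left out in turn the log2 difference was between 1.05 and 1.59. Its sign could not turn there, since the groups do not overlap. With the RPKM taken as log2(scaled RPKM + 0.5), a scale that shrinks differences of genes this low, the difference was 0.59, and its adjusted p was 0.118 from limma over the genes that reached 0.1 RPKM in 2 samples or more.

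Agtr1b was at the lower end of what was detected in all samples except AO2. Its RPKM was 0.000295 in AO1 and 0.0158 in AO2, and 0.00336 in MA1 and 0.00509 in MA2. Over the whole gene, these correspond to 2 reads and 104 reads in the AO samples and to 21 and 34 in the MA samples. AO2 stood highest and AO1 lowest, with both MA samples between them, which is the reverse of the order of Agt. In AO2 Agtr1b was above 14.7% of the genes detected, whereas in the other samples it was above 1.28% to 7.83%.

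Scaled Agtr1b in AO2 was 47.3 times that in AO1, with a counting interval of 12.8 to 396, since AO1 had only 2 reads. The corresponding ratio was 7.36 (1.80 to 64.7) for MA1 and 11.8 (3.01 to 101.0) for MA2 against AO1. These are exact 95% intervals and, like the others on reads here, they cover counting error only. They take reads as independent, and would be too narrow if both mates of a pair were counted, which is not known. Among 17797 genes with at least 10 reads in all and above 0 in both AO samples, 24, or 0.135%, were at least as far apart between AO1 and AO2 in log2 scaled RPKM as Agtr1b. Of the other 23 such genes, 22 were higher in AO1 and 1 in AO2. This rank rests on the 2 reads in AO1. At the low end of the counting interval, 12.8-fold, more genes lay as far toward AO2. Genes without reads in an AO sample were not ranked. MA1 and MA2 were 1.60-fold apart for Agtr1b, and 30.7% of genes were at least as far apart in MA.

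**Figure D2:**
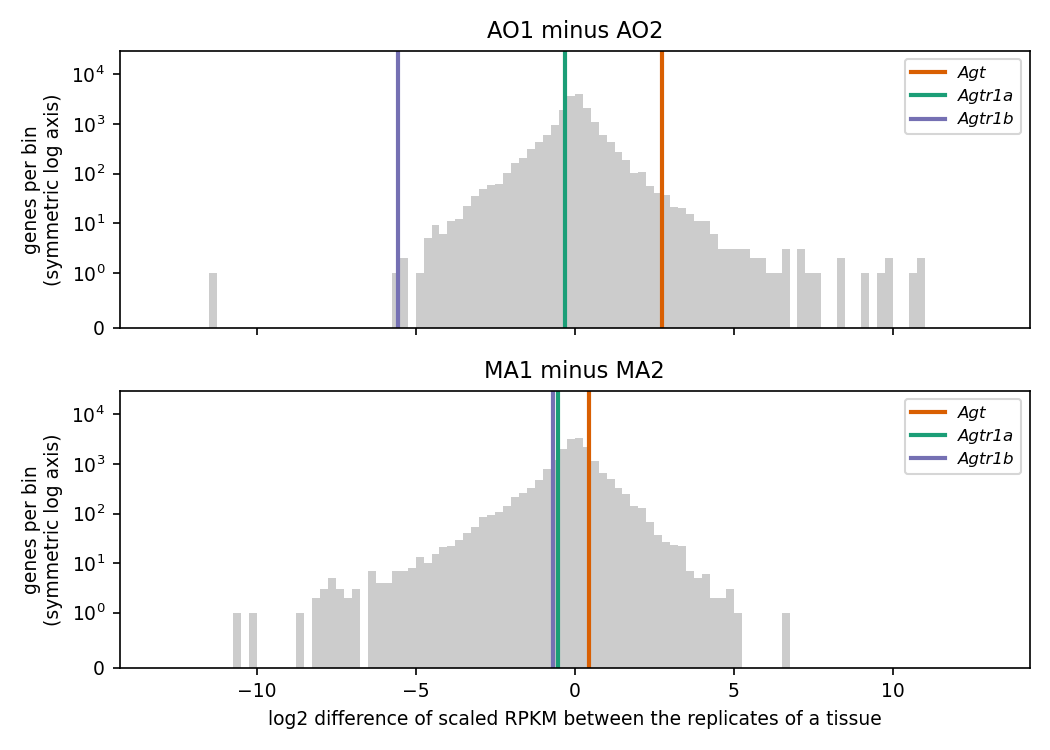
Number of genes (symmetric log axis) by the log2 difference of scaled RPKM between the samples of a tissue, AO1 minus AO2 above and MA1 minus MA2 below, for genes with at least 10 reads in all and above 0 in both samples (17797 in AO and 17935 in MA). Coloured lines mark Agt, Agtr1a and Agtr1b: in AO they stand at 2.75, -0.31 and -5.56, and in MA at 0.45, -0.54 and -0.68.

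Between tissues no direction could be given for Agtr1b. The mean of scaled RPKM was 0.00902 ± 0.0122 (SD, n = 2) in AO and 0.00357 ± 0.00116 (SD, n = 2) in MA, higher in AO, while the ratio of geometric means of MA to AO was 1.35. With limma-voom on reads the log2 difference was 0.24 (standard error 1.72, 95% interval -4.29 to 4.76), with an adjusted p of 0.959 from limma-voom. Without AO1 it was -2.33 and without AO2 it was 2.92. The AO sample kept thus set the sign, as it did for Agt.

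**Figure D3:**
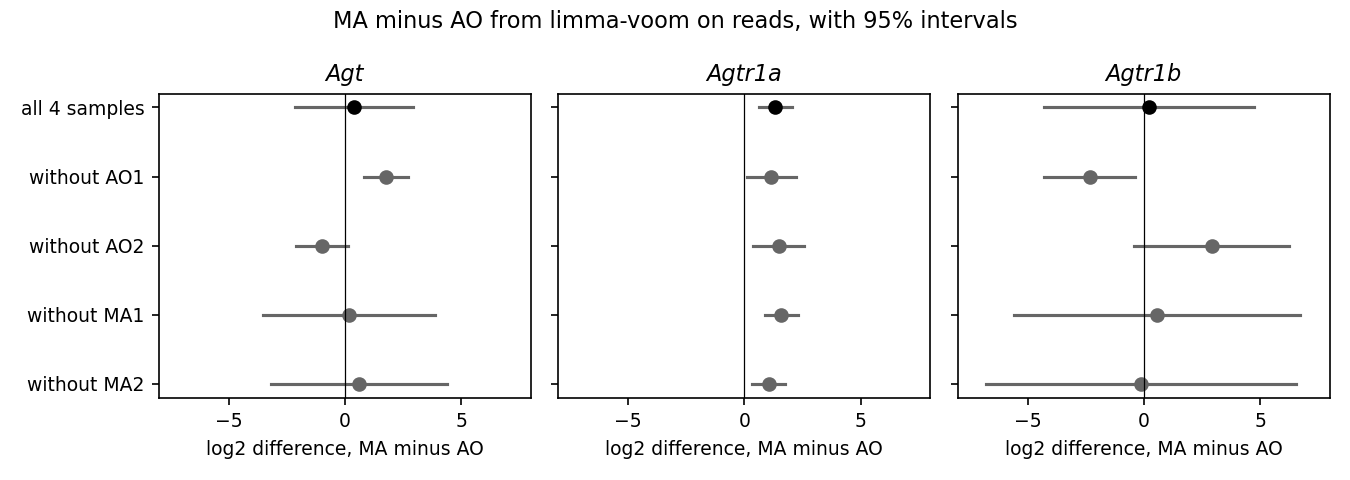
Log2 difference of MA minus AO for Agt, Agtr1a and Agtr1b from limma-voom on reads, over all 4 samples (black) and with each sample left out (grey), where bars are 95% intervals without adjustment over genes. For Agtr1a, whose groups do not overlap, the points stay above 0 by construction, between 1.05 and 1.59. Those for Agt and Agtr1b lie on opposite sides of 0 without AO1 and without AO2.

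The ratio of the receptor mRNAs within a sample does not depend on scaling. Agtr1a exceeded Agtr1b in every sample. Per length of gene, the ratio of Agtr1a to Agtr1b was 605 in AO1 but 15.8 in AO2, and it was 190 in MA1 and 173 in MA2. In reads, there were 416.5 on Agtr1a for each on Agtr1b in AO1 but 10.9 in AO2, with 131 in MA1 and 119 in MA2. The MA samples were close to each other, while AO2 had the lowest ratio and AO1 the highest. The interval of the ratio per length in AO1 ran from 167 to 5004, which takes in both MA values, and that in AO2 ran from 12.9 to 19.5, which takes in none of the others.

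As a share of all type 1 receptor reads, Agtr1b accounted for 8.41% in AO2 (95% Clopper-Pearson interval 6.93 to 10.1, of 1236 reads). In AO1 the share was 0.240% (0.0290 to 0.863, of 835 reads), in MA1 0.757% (0.469 to 1.15, of 2774 reads) and in MA2 0.832% (0.577 to 1.16, of 4086 reads). The shares of AO1, MA1 and MA2 overlapped within counting error, and that of AO2 lay above all of them. In log2 units the mean ratio of Agtr1a to Agtr1b per length was 7.50 in MA and 6.61 in AO, a difference of 0.89 with p = 1.0 in a two-sided exact permutation test. Without AO2 the difference was -1.74 and without AO1 it was 3.52. With 2 samples against 2 that test cannot give a p below 0.333. Since the coding regions of these genes are close copies and reads with up to 2 alignments were kept, reads can be assigned to the wrong copy, and the few reads of Agtr1b are uncertain for this reason. The part of such reads in these values was not tested.

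**Figure D4:**
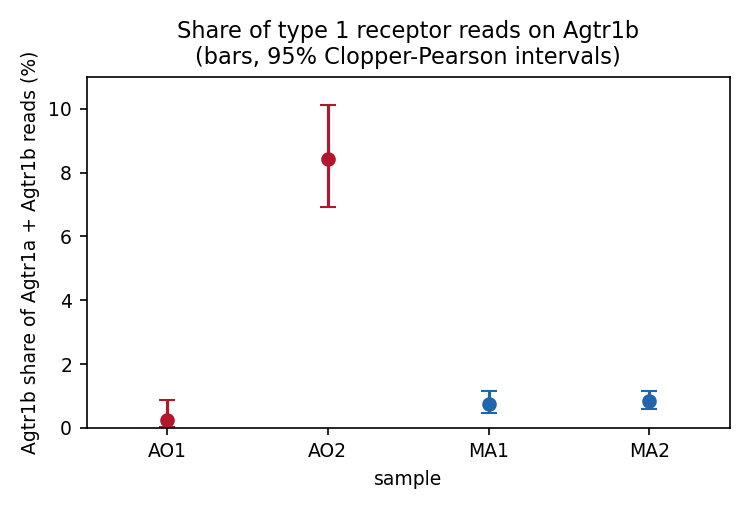
Reads on Agtr1b as a percentage of the reads on Agtr1a and Agtr1b together in AO (red) and MA (blue) samples, with 95% Clopper-Pearson intervals that cover counting error only. The share is 8.41% in AO2 and at most 0.832% in the other samples.

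Precursor and receptor were also set against each other within samples. Per length of gene, Agt exceeded Agtr1a 105-fold in AO1 and 12.7-fold in AO2, and 27.1-fold in MA1 and 13.7-fold in MA2. In reads, the corresponding ratios were 25.1, 3.03, 6.47 and 3.27. AO1 had the highest ratio, having the highest Agt and the lowest Agtr1a, while AO2 and MA2 were nearly the same. The mean log2 ratio per length was 4.27 in MA and 5.19 in AO, a difference of -0.92 with p = 1.0 in a two-sided exact permutation test. Without AO1 it was 0.60 and without AO2 it was -2.45. The spread between the AO samples (SD 2.16) was larger than this difference.

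By the distance between centred profiles of log2(scaled RPKM + 0.5) over the 4 samples, ENSRNOG00000016299 was nearest to Agt among the 7202 other genes tested, at a distance of 0.62, with 21.0, 6.49, 22.9 and 13.9 RPKM in AO1, AO2, MA1 and MA2. ENSRNOG00000024631 was nearest to Agtr1a among 18242 genes with at least 10 reads, at a distance of 0.022, with 0.422 and 0.554 RPKM in AO and 1.18 and 1.54 in MA. For so few samples a close profile is a description only, and the order of the samples in Agtr1a, from MA2 down to MA1, AO2 and AO1, was shared by 9.06% of genes. The profile of Agtr1b was almost flat on this scale, so the identifier nearest to it, ENSRNOG00000023951, carries little information. The files do not pair these identifiers with names.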

How the data were processed

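For each sample the authors deposited a list of RPKM for 26313 Ensembl identifiers. By the study's methods, paired-end reads were aligned with TopHat to the rat genome (Ensembl Rnor5), reads with more than 2 alignments were discarded, and reads per gene were divided by length and library size. Tool versions are not given in the sources used here. Names come from the identifiers that define the set. Ensembl identifiers are given for 0 of the 47357 genes in the RefSeq table of GRCr8. The other genes of the angiotensin pathway and the cell type markers planned for the comparison were therefore not analysed here.

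Whole reads, lengths and library sizes were solved from the RPKM steps with numpy 2.4.6 and numba 0.67.0 (Python 3.11.15). All 20747 genes above 0 came out as whole, at most 0.00421 of a read away, and a common divisor of a gene's reads may be missed. Whether mates of a pair were counted once is not given in the sources used here. Scaling was by median-of-ratios, with log2(scaled RPKM + 0.5) as the scale of the fit. Those genes that reached 1 RPKM in 2 samples or more were fitted with limma 3.58.1 in R 4.3.3 (trend, tissue only), with Benjamini-Hochberg adjustment over all genes fitted. Limits were an adjusted p of 0.05, 2-fold, and MA1 and MA2 both above or both below the mean of AO. Agtr1a and Agtr1b fell below the filter, so limma-voom on reads (at least 10 over the samples) was used for them. The authors' own test was DESeq on counts and was not repeated. The fits and the solving of reads were also run on simulated data, with the same relative spread set for every gene. For the fits only genes with many reads were changed. Those runs therefore do not speak for Agtr1b or for the spread of Agt within AO. The members, gene lists and tests were chosen with earlier results of these data known. The named identifiers were those nearest in profile to each member. The samples are separate dissections, and that AO1 and MA1 share a rat is ignored in the fits without a block. In limma and limma-voom, p-values rest on the spread between 2 samples per tissue, moderated by the spread of the other genes fitted. Where a sample is left out, its tissue has no spread of its own.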

Additional observations from a re-analysis of the deposited data

How the results depend on the processing

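No alternative put Agt, Agtr1a or Agtr1b past the limits, but fits lacking a sample or a filter, where no gene passed, cannot decide this. With all samples, adjusted p (limma, limma-voom) was 0.450 to 0.909 for Agt, 0.0630 to 0.226 for Agtr1a and 0.738 to 0.959 for Agtr1b. For Agtr1a the difference was above 0 in 20 of 20 alternatives. Leaving out a sample cannot turn its sign, as the groups do not overlap. Filter, trend and block on RPKM left the difference at 0.59 by construction. Those alternatives therefore add no support to the count. Choices on reads with another block, scaling or sample left out were added after the data were seen.

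For Agt the log2 difference of 0.35 reversed to -0.95 without AO2, or -0.97 on reads. With each sample left out it ran from -0.95 to 1.65 on RPKM and from -0.97 to 1.77 on reads. For Agtr1a, 0.59 became 0.81 without scaling, 1.06 and 0.39 with pseudocounts of 0.1 and 1, 1.32 on reads, 1.33 on reads with the replicate block and 1.83 on reads with the library sizes of the RPKM, and with each sample left out it ran from 0.43 to 0.71 on RPKM and from 1.05 to 1.59 on reads. For Agtr1b, -0.015 became -0.070 with a pseudocount of 0.1, 0.24 on reads, -0.81 on reads with the replicate block and 0.83 on reads with the library sizes of the RPKM, and with each sample left out it ran from -0.044 to 0.0096 on RPKM and from -2.33 to 2.92 on reads. The causes were not tested.

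The number of genes past the limits was 555. By limma it was 368 when genes had to reach only 0.1 RPKM, and 0 without any filter, where 3434 genes had an unadjusted p up to 0.05. On reads with the library sizes of the RPKM it was 3. Without single samples it was 0 by limma and by limma-voom, with between 1017 and 4082 genes at an unadjusted p up to 0.05. On reads it was 623 over the same genes and 383 over genes with at least 10 reads. With a replicate block in the RPKM fit, 563 genes passed and the adjusted p of Agt was 0.790, so its call did not change. Agtr1a and Agtr1b were below the filter of that fit, and on reads with the block their adjusted p were 0.0630 and 0.773 from limma-voom. Only AO1 and MA1 share a rat, and across genes the replicate differences of AO and MA had a correlation of 0.018. The log2 ratios between the genes changed sign with the AO sample left out: 0.89 for Agtr1a to Agtr1b ran from -1.74 to 3.52, and -0.92 for Agt to Agtr1a from -2.45 to 0.60. With 2 reads of Agtr1b in AO1, depth limits every comparison that rests on that value.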
